A study of Mus musculus with 12 samples.

Results

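The 35 genes described here belong to the cellular response to low oxygen, apart from its glycolytic enzymes: the subunits of the hypoxia-inducible factors (HIF), the enzymes that sense oxygen, and HIF target genes outside glycolysis. They were chosen by name from knowledge of the pathway, with earlier results of these data known. All 35 of 35 were found in both deposited count tables, among 26706 gene names that the tables share. Ero1l is the name in the tables for the gene that RefSeq calls Ero1a.

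RNA-seq was done on primary vascular smooth muscle cells from the mouse aorta, wild type (WT) or with a knockout of the nuclear receptor gene NR4A3 (KO), at day 1 and day 14. The 4 groups, WT at day 1, KO at day 1, WT at day 14 and KO at day 14, held 3 libraries each. All were kept in DMEM/F12 with 10% serum (FBS), penicillin-streptomycin and 10 mM beta-glycerophosphate (beta-GP), a phosphate donor used to calcify such cultures. The study asked how loss of NR4A3 affects vascular calcification. The labels list no treatment for WT but beta-GP for KO, although the described medium is the same, so the effect of genotype and whatever this label stands for cannot be told apart. The labels give neither the strain, age and sex of the mice, nor how the knockout was made. They also do not say if the replicates came from separate animals or cultures. The spread that p-values are based on here is therefore that of libraries and may be technical. No oxygen level is given for any group.

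Library totals ranged from 13848199 to 30105118 counts, and at day 1 all WT libraries (24929624 to 30105118) were deeper than all KO libraries (17143281 to 20091307). Nr4a3 itself was lower in KO at both days, at 2.07 ± 0.235 against 4.24 ± 0.384 CPM at day 1 and 49.6 ± 13.5 against 237 ± 19.6 CPM at day 14 (mean ± SD, n = 3). CPM values are read counts divided by the scaled library total, in the usual CPM unit. The smooth muscle label was only partly met: Acta2 (254 to 1830 CPM) and Des (459 to 1010 CPM) were abundant, but Tagln and Myh11, defining smooth muscle genes, stayed below 1 CPM in every library. KO at day 1 resembled WT at day 14 more than its own controls: the correlation of log2 CPM over 15956 genes had a median of 0.982 between those groups, against 0.942 to 0.953 for the other pairs of groups. Replicate 1 of WT at day 14 stood apart from its group: its median correlation was 0.982 with the other replicates and 0.99 with the libraries of KO at day 1. Results that rest on it are given with and without it.

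HIF is a pair of proteins, an alpha subunit (Hif1a or Epas1) and a beta subunit (Arnt), that binds DNA and switches on genes suited to low oxygen. When oxygen is present, prolyl hydroxylases (the Egln genes) mark the alpha subunit, the Vhl protein binds the mark, and the subunit is destroyed. Several of these sensors are HIF targets themselves, which makes a feedback loop. HIF activity is set mainly by the amount of alpha subunit protein, which RNA counts do not measure. In cells of the vessel wall the response is known for angiogenic ligands, mitophagy, acid handling and collagen processing.

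The DNA letters that HIF is known to contact are ACGTG and GCGTG. RefSeq promoter windows (build GRCm38.p6, which differs from the mm9 build named for the counts) were found for 28 of the 35 members. The 250 bases before each start site were searched on both strands, so CACGT and CACGC also count, and matches may overlap, as in CACGCGTG. At least 1 match was present for 25 of the 28 members (89.3%), against 59.5% of 10792 tested genes and 41.5% of all 27025 genes with a window. For ACGTG alone the shares were 71.4% of members, 24.3% of tested genes and 18.5% of all genes. These windows were not matched for base composition, several members entered the list as known HIF targets, and a match is a description of letters, not of a bound site. The 4 windows below belong to the members with the largest falls in KO at day 1 among those with a match. They are written 5′ to 3′ on the strand of the gene, with every match in capitals.
Ankrd37 (chr8:45999851-46000100, minus strand): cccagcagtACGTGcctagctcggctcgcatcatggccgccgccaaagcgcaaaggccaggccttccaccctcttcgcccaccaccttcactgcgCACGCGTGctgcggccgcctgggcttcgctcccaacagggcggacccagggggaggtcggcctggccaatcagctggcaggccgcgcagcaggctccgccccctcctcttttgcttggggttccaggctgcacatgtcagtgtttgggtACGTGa
Pgf (chr12:85177314-85177563, minus strand): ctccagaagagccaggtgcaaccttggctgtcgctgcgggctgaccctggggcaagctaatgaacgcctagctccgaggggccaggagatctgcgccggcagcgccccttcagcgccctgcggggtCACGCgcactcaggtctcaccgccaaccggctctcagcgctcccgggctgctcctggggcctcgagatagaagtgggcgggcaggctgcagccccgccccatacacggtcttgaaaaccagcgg
Ero1l (chr14:45318573-45318822, minus strand): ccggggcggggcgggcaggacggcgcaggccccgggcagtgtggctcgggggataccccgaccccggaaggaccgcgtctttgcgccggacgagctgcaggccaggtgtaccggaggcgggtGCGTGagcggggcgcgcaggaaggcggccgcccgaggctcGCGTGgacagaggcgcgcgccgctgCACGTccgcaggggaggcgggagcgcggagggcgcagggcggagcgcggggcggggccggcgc
Car9 (chr4:43506776-43507025, plus strand): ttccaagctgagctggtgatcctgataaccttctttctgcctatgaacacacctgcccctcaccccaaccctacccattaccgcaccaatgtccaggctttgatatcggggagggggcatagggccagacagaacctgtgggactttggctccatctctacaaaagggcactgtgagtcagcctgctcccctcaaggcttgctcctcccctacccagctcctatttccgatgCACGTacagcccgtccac
The Ankrd37 window held 4 matches, of which 2 were ACGTG, and the Ero1l window held 3, of which 1 was ACGTG. The Car9 window held a single ACGTG, read as CACGT and starting 18 bases before the start site. In the Pgf window the only match was a GCGTG on the other strand.

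At day 1 most of the members were lower in KO cells, and at day 14 many of them were higher. In KO against WT at day 1, 27 of 34 tested members were lower and 3 higher (edgeR quasi-likelihood test, adjusted p below 0.05), while 60.8% of all 15347 genes tested were called, 30.1% as lower and 30.7% as higher. The members' median log2 fold change was -0.82, against 0.01 over all genes. By at least 2-fold, 14 of 34 members were called lower and 0 higher. Over all 15347 genes, 1455 were called lower and 1549 higher at that size. In KO against WT at day 14, 16 of 35 members were higher and 4 lower, while 46.4% of 14885 genes were called, 22.7% as higher and 23.7% as lower. The median was 0.40 against -0.00 over all genes. Both days had many changed genes, so the called share of members (30 of 34 and 20 of 35) is read against these backgrounds. Of the calls over all genes, 50.4% at day 1 and 48.9% at day 14 were higher in KO. With library size alone as the scale, the median of all genes moved by 0.122 at day 1 and 61.7% of all calls there were higher, with the members at 4 higher and 27 lower. The count of 3 higher members at day 1 was 0 without replicate 2 of WT, 1 without replicate 3 of WT and 2 without replicate 1 of WT or replicate 3 of KO. With replicate 1 of WT at day 14 left out, the day 14 counts were 19 higher and 8 lower.

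Across the days, 15 members were lower in KO at day 1 and higher in KO at day 14: Egln1, Egln3, Pgf, Bnip3, Higd1a, Fam162a, Ak4, P4hb, Plod1, Plod2, Ero1l, Kdm3a, Kdm4b, Ankrd37 and Nampt. Another 10 were lower at day 1 and not called at day 14, and Car12 and Ndrg1 were lower at both days. Hif1an, Vhl and Jmjd6 were higher at day 1 and not called at day 14. Kdm4c and Bhlhe41 were called, as lower, at day 14 alone, and neither Egln2 nor Vegfa was called at either day. Epas1 was too low to be tested at day 1 and higher in KO at day 14. The share of all genes with each of these pairs of calls was not counted, so these counts only describe the members. Whether the KO effect changed from day to day was itself tested: 25 members moved upward and 5 downward, with 60.1% of 15956 genes called, 29.5% upward and 30.6% downward. The members' median change was 1.37 on the log2 scale, against -0.01 over all genes. With library size alone as the scale, the median of all genes moved by -0.21, the upward share of calls went from 49.1 to 37.9%, and the members were 24 upward and 7 downward.

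**Figure D1:**
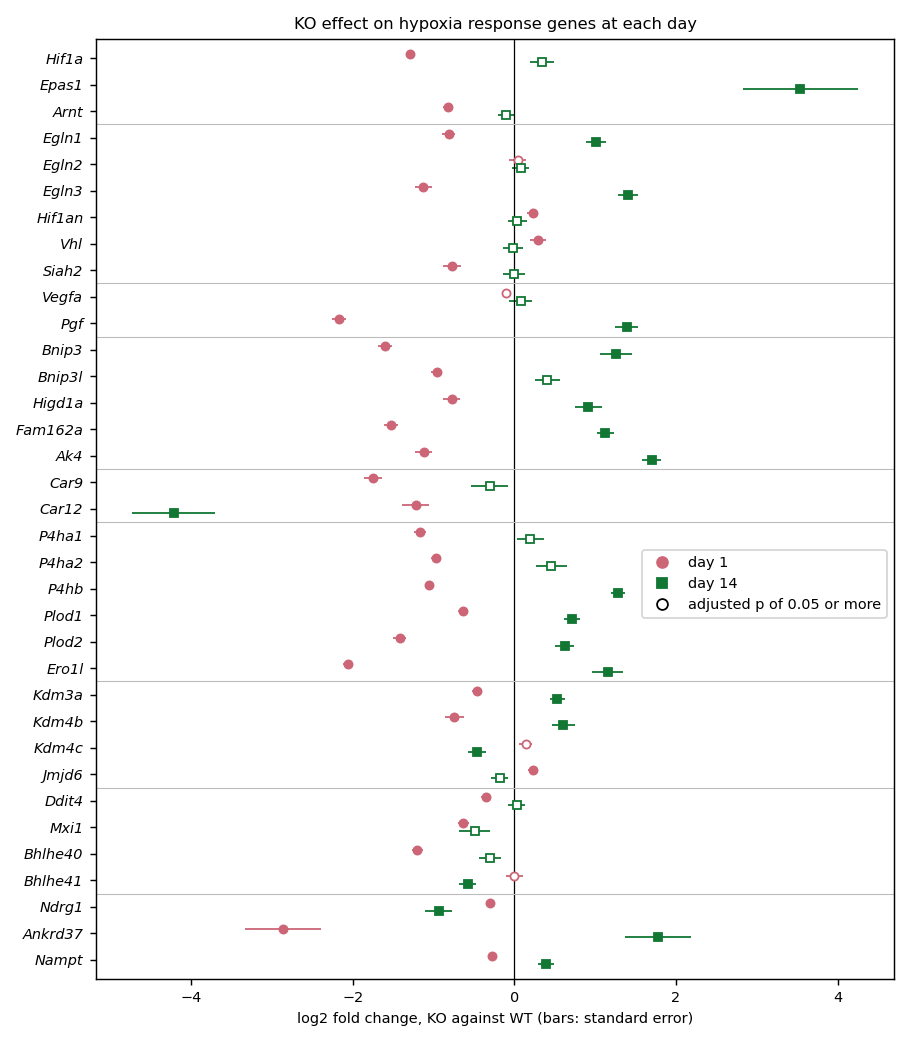
Log2 fold change of KO against WT for the 35 members at day 1 (circles) and day 14 (squares), grouped by role, with standard errors as bars and open symbols for an adjusted p of 0.05 or more. Most circles lie left of 0, and the squares of 15 of those genes lie right of it, filled; Car12 lies left of 0 at both days.

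The libraries differed in other ways between the same groups. The 9 smooth muscle markers summed to 1203 to 1260 CPM in WT and 1431 to 1633 in KO at day 1. At day 14 the sums were 1262 to 2022 in WT and 2124 to 2534 in KO, higher in KO without overlap at both days. That rise was mostly Acta2, with means of 276 CPM in WT and 667 in KO at day 1, then 662 and 1625 at day 14. Of 7 smooth muscle markers tested at each day, 4 were higher and 2 lower in KO at day 1. At day 14, 2 were higher and 3 lower. The summed CPM of 9 adventitial fibroblast markers was 577 to 587 in WT and 245 to 367 in KO at day 1, and 509 to 699 in WT and 687 to 769 in KO at day 14, with Dpp4 and Lum below 1 CPM in every library. Ly6a was the largest part of these sums, with means of 389.3 CPM in WT and 202.5 in KO at day 1. Its day 14 means were 526.5 and 623.1 CPM. Among 7 fibroblast markers tested at day 1, 7 were lower in KO. Among 6 tested at day 14, 3 were higher and 2 lower. The mitochondrial share of counts was 4.25 to 4.5% in WT and 3.66 to 4.70% in KO at day 1, then 3.26 to 3.42% in WT and 4.41 to 4.79% in KO at day 14. At day 1 the fibroblast sum and most members were lower in KO, and at day 14 the mitochondrial share and many members were higher, without overlap between the groups. The sums of 5 adipocyte markers (97.2 to 112 in WT and 323 to 406 in KO at day 1, 330 to 565 and 978 to 1153 at day 14) were higher in KO at both days, with Adipoq, Plin1 and Cidec below 1 CPM throughout. That sum is almost all Lpl. Fabp4, the other adipocyte marker with counts to test, was higher in KO at day 1 (0.198 ± 0.17 in WT and 9.38 ± 2.3 CPM in KO) and lower at day 14 (16.8 ± 4.84 and 8.07 ± 1.18 CPM, a log2 fold change of -1.07 ± 0.23, adjusted p = 0.00496). The 5 mesothelial markers summed to 399 to 408 in WT and 354 to 361 in KO at day 1, and to 269 to 411 and 78.2 to 82.1 at day 14, with Upk3b and Lrrn4 below 1 CPM. These sums were mostly Msln, with means of 334 CPM in WT and 340 in KO at day 1, then 346 and 76.9 at day 14. Krt19 averaged 69.1 CPM in WT and 16.3 in KO at day 1. Among 3 mesothelial markers tested at each day, 2 were lower in KO at day 1 and 3 at day 14, and 0 were higher. The 7 endothelial markers measured were low. Their sums were 13.7 to 16.2 CPM in WT and 5.06 to 6.71 in KO at day 1. At day 14 the sums were 9.44 to 10.4 and 7.41 to 8.46. The day 1 sum was mostly Cdh5, and of 2 endothelial markers tested there, 1 was lower and 1 higher in KO. Pecam1, Tek and Erg stayed below 1 CPM, and Cdh5 was 14.1 ± 1.07 CPM in WT and 3.7 ± 0.42 CPM in KO at day 1. The 7 macrophage markers summed to 60.1 to 65.6 CPM in WT and 60.6 to 73.0 in KO at day 1, and to 64.4 to 95.7 and 50.3 to 54.2 at day 14, with Adgre1 and C1qa below 1 CPM. The day 1 sums hide opposite changes: Cd68 averaged 21.9 CPM in WT and 48.6 in KO, and Cd14 40.9 and 16.55. Among 3 macrophage markers tested at day 1, 2 were higher and 1 lower in KO. Among 4 tested at day 14, 1 was higher and 1 lower. The 4 Schwann cell markers summed to 1.2 to 1.97 CPM in WT and 2.39 to 3.65 in KO at day 1, and to 2.08 to 2.93 and 0.916 to 2.07 at day 14, with Sox10 and S100b below 1 CPM. The part of depth, markers and mitochondrial share in the results was not tested. In bulk samples, fewer cells of a type and less RNA per cell cannot be told apart.

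The HIF subunits differed in their pattern. Hif1a, the main alpha subunit, stood at 422, 438 and 442 CPM in WT and at 178, 169 and 183 CPM in KO at day 1. At day 14 it stood at 184, 275 and 258 CPM in WT and at 324, 289 and 305 CPM in KO. All KO libraries were below WT at day 1, and all were above it at day 14. The log2 fold change was -1.29 ± 0.06 (SE, adjusted p = 5.65e-10) at day 1 and 0.34 ± 0.14 (adjusted p = 0.08) at day 14. Without replicate 1 of WT at day 14, which was the lowest there, the day 14 value was 0.17 (adjusted p = 0.0491). The KO effect changed by 1.65 ± 0.16 between the days (adjusted p = 3.94e-07).

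Arnt, the shared beta subunit, averaged 192 ± 3.15 CPM in WT at day 1 and 105 to 112 CPM in the other 3 groups (SD 3.68 to 12.9, n = 3). It was lower in KO at day 1, at -0.82 ± 0.06 (adjusted p = 8.33e-08), and the day 14 groups overlapped, at -0.10 ± 0.10 (adjusted p = 0.455). With replicate 1 of WT at day 14 left out, the day 14 value was -0.21 (adjusted p = 0.0146). Epas1 encodes the other alpha subunit, HIF-2 alpha, and was close to the detection limit in 3 groups. Its CPM were 0.419, 0.778 and 0.0792 in WT and 0.166, 0.167 and 0.292 in KO at day 1. At day 14 they were 0.400, 0 and 0.0494 in WT, from 9 counts in all, and 1.28, 2.47 and 2.21 in KO, from 97 counts. Every KO library at day 14 lay above every other library. The day 14 difference was 3.54 ± 0.71 (adjusted p = 0.00345), and without replicate 1 of WT it was 5.75, a size set by very few counts.

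Of the 6 oxygen sensors and turnover genes, Egln1 and Egln3, known HIF targets, were lower in KO at day 1 and higher at day 14, and the other 4 had no call at day 14. Egln1 (PHD2), the main prolyl hydroxylase, stood at 50, 46.9 and 47.0 CPM in WT and 26.7, 29.1 and 25.6 CPM in KO at day 1. At day 14 the values were 32.5, 28.2 and 36.8 CPM in WT and 71.8, 60.7 and 65.7 CPM in KO. The groups did not overlap at either day, and the order of the genotypes turned over between them. The log2 fold changes were -0.81 ± 0.08 (adjusted p = 1.3e-06) and 1.01 ± 0.12 (adjusted p = 0.00023). Egln3 (PHD3) stood at 54.2, 51.5 and 50.3 CPM in WT and 25.5, 26.4 and 19.2 CPM in KO at day 1. Its day 14 values were 24.7, 23.9 and 23.0 CPM in WT and 73.8, 55.1 and 62.0 CPM in KO. Here too the genotypes were separate at each day and in opposite order, with log2 fold changes of -1.13 ± 0.11 (adjusted p = 1.03e-06) and 1.40 ± 0.13 (adjusted p = 3.9e-05).

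Egln2 (PHD1), the third hydroxylase, averaged 37.2 to 41.6 CPM in the 4 groups, and its libraries overlapped at both days (0.04 ± 0.11 and 0.08 ± 0.10, adjusted p = 0.769 and 0.555). Hif1an (FIH), which blocks the activity of the alpha subunit by hydroxylating an asparagine, was 42.1 ± 0.808 CPM in WT and 49.0 ± 2.01 CPM in KO at day 1, a difference of 0.23 ± 0.07 (adjusted p = 0.0111). Vhl, the recognition subunit of the ubiquitin ligase for HIF alpha, was 22.5 ± 0.709 and 27.3 ± 3.2 CPM there (0.29 ± 0.10, adjusted p = 0.0203). Both calls were lost when some single libraries were left out (adjusted p up to 0.0621 for Hif1an and up to 0.093 for Vhl). At day 14 the values were 0.04 ± 0.12 for Hif1an and -0.01 ± 0.13 for Vhl, with overlapping groups. Siah2, a ubiquitin ligase that targets prolyl hydroxylases, was 19.9 ± 1.6 CPM in WT and 11.6 ± 1.26 CPM in KO at day 1 (-0.77 ± 0.11, adjusted p = 6.61e-05). At day 14 it was 16.0 ± 1.67 and 16.1 ± 0.377 CPM (-0.00 ± 0.13, adjusted p = 0.988).

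The 2 angiogenic ligands parted ways. Pgf, placental growth factor, stood at 45.4, 45.2 and 46.5 CPM in WT and 10.5, 9.33 and 10.5 CPM in KO at day 1. The day 14 values were 10.9, 14.4 and 12.3 CPM in WT and 36.6, 30.3 and 32.3 CPM in KO. WT at day 1 and KO at day 14 were the high groups, and neither overlapped a low group. The log2 fold changes were -2.17 ± 0.09 (adjusted p = 3.52e-10) and 1.39 ± 0.14 (adjusted p = 8.91e-05). Vegfa, the best known HIF target, averaged 448 ± 6.07 CPM in WT and 414 ± 9.86 CPM in KO at day 1. At day 14 the means were 531 ± 99.7 and 565 ± 47.5 CPM, with replicate 1 of WT the lowest library at 416 CPM. Neither difference passed the test (-0.11 ± 0.05, adjusted p = 0.0863, and 0.08 ± 0.14, adjusted p = 0.679), although the day 1 libraries did not overlap. Without replicate 3 of KO the day 1 value was called (-0.12, adjusted p = 0.0295), with library size alone as the scale it was 0.02, and without replicate 1 of WT the day 14 value was -0.09. Nor did the KO effect on Vegfa change past the threshold (adjusted p = 0.264), whereas that of Pgf was 3.58 ± 0.17 (adjusted p = 1.07e-10).

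All 5 mitochondrial members were lower in KO at day 1, and 4 of them were higher at day 14. Bnip3, a mitophagy receptor of the outer membrane, stood at 70.0, 63.1 and 72.3 CPM in WT and 22.2, 20.7 and 24.2 CPM in KO at day 1. By day 14 it stood at 22.4, 27.5 and 32.2 CPM in WT and 84.2, 52.6 and 61.5 CPM in KO, so the genotypes were apart at each day in opposite order. The log2 fold changes were -1.60 ± 0.08 (adjusted p = 3.72e-09) and 1.26 ± 0.19 (adjusted p = 0.000839). Fam162a, a mitochondrial protein linked to cell death in hypoxia, stood at 126, 128 and 124 CPM in WT and 49.6, 36.2 and 44.6 CPM in KO at day 1. Its day 14 values were 46.0, 46.7 and 50.5 CPM in WT and 117, 102 and 95.4 CPM in KO. Again no library of one genotype lay within the range of the other (-1.53 ± 0.09, adjusted p = 1.52e-08, and 1.12 ± 0.10, adjusted p = 4.93e-05).

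Ak4, an adenylate kinase of the mitochondrial matrix, stood at 39.8, 35.4 and 37.4 CPM in WT and 15.1, 19.7 and 16.6 CPM in KO at day 1. At day 14 the values were 16.5, 16.4 and 15.6 CPM in WT and 59.1, 49.9 and 49.7 CPM in KO. KO at day 14 was the highest group, above WT at day 1 by 0.49 ± 0.11 (adjusted p = 0.00128). Within the days the differences were -1.12 ± 0.10 (adjusted p = 8.71e-07) and 1.70 ± 0.11 (adjusted p = 7.9e-06). Higd1a, a small protein of the respiratory chain, averaged 25.1 ± 1.74 CPM in WT and 14.6 ± 1.67 CPM in KO at day 1, then 13.2 ± 2.68 and 25.1 ± 1.82 CPM at day 14 (-0.78 ± 0.11 and 0.92 ± 0.16, adjusted p = 3.34e-05 and 0.00183). Bnip3l (NIX), the other mitophagy receptor, averaged 274 ± 5.7 and 140 ± 11.9 CPM at day 1 (-0.96 ± 0.06, adjusted p = 4.38e-08). At day 14 the values were 162 ± 34.4 and 217 ± 21.7 CPM, 0.41 ± 0.16 on the log2 scale (adjusted p = 0.0597). Without replicate 1 of WT the Bnip3l value was 0.22 (adjusted p = 0.0228).

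The 2 carbonic anhydrases, membrane enzymes that regulate pH at the cell surface, were lower in KO at day 1, and neither was higher at day 14. Car9 stood at 35.3, 41.2 and 35.9 CPM in WT and 11.9, 9.55 and 11.7 CPM in KO at day 1. Its values at day 14 were 8.14, 13.4 and 15.2 CPM in WT and 9.90, 10.3 and 9.75 CPM in KO. WT at day 1 was the only high group, and the genotypes overlapped at day 14. The differences were -1.75 ± 0.11 (adjusted p = 1.96e-08) and -0.30 ± 0.23 (adjusted p = 0.299). With replicate 1 of WT at day 14 left out, the Car9 value there was -0.56 (adjusted p = 0.00191), so this call depends on that library. The difference of KO at day 14 from WT at day 1 was -1.91 ± 0.18 (adjusted p = 5.58e-07). Car12 stood at 6.45, 7.60 and 6.78 CPM in WT and 3.27, 3 and 2.63 CPM in KO at day 1. In the day 14 libraries it stood at 2.85, 2.58 and 6.08 CPM in WT and 0.243, 0.141 and 0.215 CPM in KO, where the 3 libraries together held 10 counts. KO at day 14 was the lowest group, and KO was below WT without overlap at both days (-1.22 ± 0.17, adjusted p = 4.3e-05, and -4.22 ± 0.51, adjusted p = 0.000215). The KO effect on Car12 moved further down between the days (-2.99 ± 0.54, adjusted p = 0.000208).

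All 6 members that process collagen and disulphide bonds in the endoplasmic reticulum were lower in KO at day 1, and 4 of 6 were higher at day 14. P4ha1, the catalytic subunit of collagen prolyl 4-hydroxylase, stood at 579, 625 and 634 CPM in WT and 280, 242 and 290 CPM in KO at day 1. At day 14 it stood at 226, 335 and 365 CPM in WT and 398, 336 and 339 CPM in KO. The genotypes were far apart at day 1 (-1.17 ± 0.07, adjusted p = 1.57e-08) and overlapped at day 14 (0.20 ± 0.17, adjusted p = 0.362). P4ha2, a second catalytic subunit, averaged 146 ± 3.57 and 73.9 ± 1.64 CPM at day 1 (-0.97 ± 0.06, adjusted p = 8.97e-09). The day 14 values were 101 ± 27.5 and 140 ± 16.1 CPM (0.46 ± 0.19, adjusted p = 0.0798). Without replicate 1 of WT, the P4ha2 value was 0.23 (adjusted p = 0.0289) and that of P4ha1 -0.00 (adjusted p = 0.987).

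P4hb, protein disulphide isomerase and the beta subunit of the same hydroxylase, stood at 1209, 1306 and 1248 CPM in WT and 606, 593 and 601 CPM in KO at day 1. By day 14 it stood at 587, 639 and 666 CPM in WT and 1576, 1532 and 1537 CPM in KO. The high groups, WT at day 1 and KO at day 14, lay far above the low ones (-1.05 ± 0.05, adjusted p = 2.5e-09, and 1.28 ± 0.08, adjusted p = 7.6e-06). Of the lysyl hydroxylases, Plod2 hydroxylates lysines that are used in the cross-links of stiff collagen. It stood at 318, 323 and 315 CPM in WT and 113, 106 and 136 CPM in KO at day 1. At day 14 Plod2 stood at 99.5, 112 and 123 CPM in WT and 194, 157 and 167 CPM in KO. KO exceeded WT at day 14 but stayed below the WT level of day 1. The Plod2 differences were -1.42 ± 0.08 (adjusted p = 8.41e-09), 0.62 ± 0.12 (adjusted p = 0.00228) and, for KO at day 14 against WT at day 1, -0.88 ± 0.11 (adjusted p = 6.7e-06). Plod1 averaged 103 ± 6.41 and 66.0 ± 2.9 CPM at day 1, then 71.3 ± 7.55 and 118 ± 1.51 CPM at day 14 (-0.64 ± 0.07 and 0.72 ± 0.10, adjusted p = 2.8e-06 and 0.000423).

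Ero1l, the oxidase that keeps protein disulphide isomerase oxidised, had one of the largest falls at day 1. Its values were 815, 835 and 832 CPM in WT and 185, 198 and 211 CPM in KO at day 1. At day 14 they were 180, 112 and 136 CPM in WT and 396, 281 and 283 CPM in KO. The genotypes were apart at both days, and all KO libraries at day 14 lay below those of WT at day 1. The differences were -2.05 ± 0.06 (4.15-fold lower, adjusted p = 2.4e-11) and 1.16 ± 0.19 (2.23-fold higher, adjusted p = 0.00122). The difference of KO at day 14 from WT at day 1 was -1.37 ± 0.15 (adjusted p = 3e-06).

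**Figure D2:**
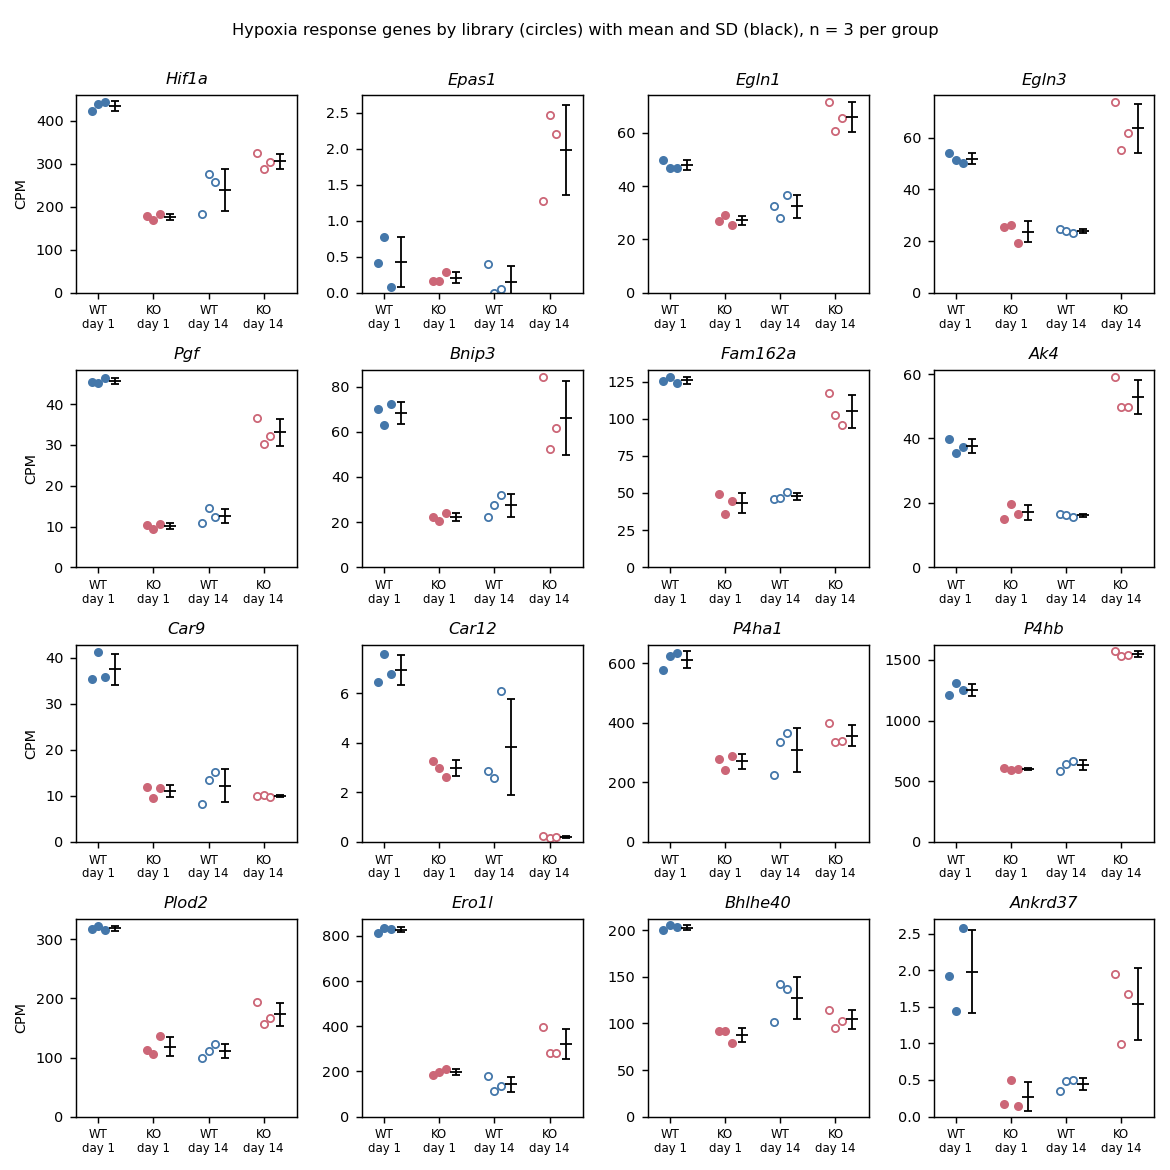
CPM (y axes, linear, each from 0) of the 16 members called with a 2-fold or larger difference between KO and WT at day 1 or day 14, in WT (blue) and KO (red) at day 1 (filled) and day 14 (open), with each library as a circle and the mean and SD (n = 3) in black. Egln1, Egln3, Pgf, Bnip3, Fam162a, Ak4, P4hb, Plod2, Ero1l and Ankrd37 are higher in WT at day 1 and KO at day 14 than in the other groups, whereas Car9 is high in WT at day 1 alone and Car12 is close to 0 in KO at day 14.

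The demethylases and the related Jmjd6 need oxygen as a substrate and divided between the directions. Kdm3a, which removes methyl groups from histone H3 lysine 9, averaged 145 ± 8.13 CPM in WT and 104 ± 1.33 CPM in KO at day 1, then 116 ± 9.45 and 169 ± 9.08 CPM at day 14 (-0.46 ± 0.06 and 0.53 ± 0.09, adjusted p = 1.66e-05 and 0.00162). Kdm4b averaged 43.0 ± 2.92 and 25.6 ± 4.92 CPM at day 1, then 33.1 ± 5.43 and 50.8 ± 4.82 CPM at day 14 (-0.74 ± 0.12 and 0.61 ± 0.14, adjusted p = 0.000119 and 0.00666). Both had genotypes that did not overlap at either day. Their relative Kdm4c was called at day 14 alone, as lower: 54.0 ± 2.48 and 59.1 ± 4.93 CPM at day 1 (0.14 ± 0.08, adjusted p = 0.127), and 50.9 ± 5.15 and 37.3 ± 2.36 CPM at day 14 (-0.46 ± 0.11, adjusted p = 0.00767). At day 1 it was called as higher without replicate 2 of KO (0.21, adjusted p = 0.00916) and with library size alone as the scale (0.26, adjusted p = 0.00748). Jmjd6, a lysyl hydroxylase of the same protein fold, averaged 53.1 ± 2.41 and 62.1 ± 0.877 CPM at day 1 (0.23 ± 0.06, adjusted p = 0.00655). That call was lost without replicate 2 of WT (adjusted p = 0.059). At day 14 Jmjd6 averaged 59.9 ± 6.85 and 53.3 ± 2.25 CPM (-0.18 ± 0.11, adjusted p = 0.198).

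Of the 4 genes that restrain growth or transcription, 3 were lower in KO at day 1 and none was higher at day 14. Bhlhe40 (DEC1), a transcriptional repressor, stood at 200, 205 and 203 CPM in WT and 92.4, 91.9 and 78.8 CPM in KO at day 1. At day 14 the values were 102, 143 and 137 CPM in WT and 115, 95.3 and 103 CPM in KO. The genotypes were apart at day 1 (-1.20 ± 0.07, adjusted p = 7.05e-09) and overlapped at day 14 (-0.30 ± 0.14, adjusted p = 0.109). With replicate 1 of WT left out the day 14 value was -0.45 (adjusted p = 0.000103). Its relative Bhlhe41 (DEC2) averaged 33.2 ± 3.56 and 33.0 ± 3.87 CPM at day 1 (0.00 ± 0.10, adjusted p = 0.987), and 35.2 ± 1.37 and 23.8 ± 1.86 CPM at day 14 (-0.58 ± 0.11, adjusted p = 0.00222).

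Mxi1, an antagonist of Myc, averaged 79.5 ± 3.8 and 51.1 ± 2.68 CPM at day 1 (-0.63 ± 0.07, adjusted p = 3.77e-06). Its values at day 14 were 68.8 ± 17.8 and 49.4 ± 6.17 CPM (-0.49 ± 0.19, adjusted p = 0.0626). Replicate 1 of WT was low there, and without it the value was -0.71 (adjusted p = 4.83e-06). Ddit4 (REDD1), an inhibitor of mTORC1, averaged 114 ± 6.71 and 89.4 ± 3.63 CPM at day 1 (-0.35 ± 0.06, adjusted p = 0.00036), and 106 ± 9.13 and 109 ± 9.25 CPM at day 14 (0.03 ± 0.10, adjusted p = 0.839).

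The 3 remaining HIF targets stand outside these groups. Ndrg1, a stress-responsive gene, averaged 445 ± 3.19 CPM in WT and 359 ± 16.7 CPM in KO at day 1, then 307 ± 45.5 and 162 ± 36.6 CPM at day 14. It was lower in KO at both days (-0.30 ± 0.05 and -0.94 ± 0.17, adjusted p = 0.000324 and 0.00174), and KO at day 14 was its lowest group. With library size alone as the scale the day 1 value was -0.18, still called; in a fit of all 12 libraries it was -0.31 and not called (adjusted p = 0.0535). Ankrd37, an ankyrin repeat gene with 2 ACGTG in its promoter window, was low: 1.93, 1.45 and 2.58 CPM in WT and 0.166, 0.5 and 0.146 CPM in KO at day 1. In the day 14 libraries it stood at 0.350, 0.488 and 0.494 CPM in WT and 1.94, 0.987 and 1.67 CPM in KO. The genotypes did not overlap at either day (-2.86 ± 0.47, adjusted p = 0.000169, and 1.78 ± 0.40, adjusted p = 0.00636), although KO at day 1 held only 15 counts in all. Without replicate 2 of KO at day 1 the Ankrd37 value was -3.61. Its exons overlap those of Ufsp2 on the opposite strand, which reached 57.4 CPM, and reads of the 2 genes cannot be told apart if strand was not used in counting. Nampt, which makes a precursor of NAD, averaged 189 ± 5.48 and 155 ± 6.58 CPM at day 1, then 164 ± 11.2 and 218 ± 21.5 CPM at day 14 (-0.28 ± 0.06 and 0.40 ± 0.10, adjusted p = 0.000842 and 0.0101).

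Between the days the members moved in opposite directions in the genotypes. In WT, 25 of 35 members were lower at day 14 than at day 1 and 0 were higher, while 51.9% of 15956 genes were called, 26.1% as lower and 25.8% as higher (edgeR; 1 member was higher at an unadjusted p below 0.05, and 0 by DESeq2 at an adjusted p below 0.05). Without replicate 1 of WT at day 14 the counts were 25 lower and 1 higher, and without replicate 2 of that group 22 lower and 2 higher. The largest WT falls were in Ero1l (-2.53 ± 0.16, adjusted p = 5.21e-09), Ankrd37 (-2.15 ± 0.44, adjusted p = 0.000811), Pgf (-1.87 ± 0.12, adjusted p = 4.98e-09) and Car9 (-1.62 ± 0.17, adjusted p = 2.04e-06). In KO, 23 of 35 members were higher at day 14 than at day 1 and 5 lower, with 54.8% of genes called, 26.9% as higher and 27.9% as lower. The rises included Epas1 (3.19 ± 0.74, adjusted p = 0.00185), Ankrd37 (2.51 ± 0.49, adjusted p = 0.000483), Pgf (1.71 ± 0.12, adjusted p = 1.38e-08) and Ak4 (1.62 ± 0.11, adjusted p = 1.38e-08). Vegfa was among them, at 0.45 ± 0.11 (adjusted p = 0.00269). The falls were in Car12 (-3.83 ± 0.44, adjusted p = 3.14e-06), Ndrg1 (-1.15 ± 0.13, adjusted p = 2.86e-06), Kdm4c, Bhlhe41 and Jmjd6. The Jmjd6 call was marginal (-0.22, adjusted p = 0.0449): it was lost without a filter on low counts (adjusted p = 0.137) and when any 1 of 8 of the 12 libraries was left out, namely any day 1 library or replicate 2 or 3 of KO at day 14 (adjusted p = 0.0624 to 0.15). Each day has its own table, so a day effect and a table effect cannot be told apart here; any shift shared by a whole table drops out of the change of the KO effect. With library size alone as the scale, the median of all genes moved by 0.131 in the WT contrast, the share of higher calls went from 49.7 to 62.7%, and the members were 3 higher and 22 lower.

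KO at day 1 and WT at day 14 were close in the members. Of 35 members, 3 were called, all lower in KO at day 1, against 9.77% of 15956 genes (5.9% as lower and 3.87% as higher), so their share was near the background. They were Bhlhe40 (-0.54 ± 0.11, adjusted p = 0.00996), Siah2 (-0.46 ± 0.12, adjusted p = 0.0294) and Hif1a (-0.44 ± 0.11, adjusted p = 0.0269). This closeness depends in part on 1 library: without replicate 1 of WT at day 14, 16 members were called, 13 lower and 3 higher in KO at day 1, with 5531 genes called in all instead of 1559. KO at day 14 against WT at day 1 had 7 members higher and 16 lower, with 50.7% of genes called (24.6% higher, 26.1% lower), and a median of -0.07. The higher count depended on single libraries: it was 4 without replicate 1 or 3 of WT at day 1 or replicate 1 of KO at day 14, 5 without replicate 2 of WT at day 1, and 10 without replicate 1 or 2 of WT at day 14. Its calls included Epas1 (2.18 ± 0.64, adjusted p = 0.0103), Ak4, Egln1 (0.46 ± 0.10, adjusted p = 0.00145) and P4hb (0.30 ± 0.07, adjusted p = 0.00141) as higher. The Epas1 call was lost without replicate 3 of WT at day 1 (1.70, adjusted p = 0.0511). Car12 (-5.05 ± 0.41, adjusted p = 1.1e-07), Car9, Ndrg1 (-1.46 ± 0.13, adjusted p = 3.54e-07), Ero1l and Bhlhe40 (-0.96 ± 0.11, adjusted p = 6.39e-06) were lower.

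The same order of the groups recurred among the members, which was noticed after the values were seen. In 18 of 35 members every library of WT at day 1 and of KO at day 14 lay above every library of KO at day 1 and of WT at day 14, as did 12.4% of 15956 genes. The 18 comprised the 15 members lower at day 1 and higher at day 14, with Hif1a, Bnip3l and P4ha2. The reverse order was found in 0 of 35 members and in 11.7% of genes. The count was 15 with library size alone as the scale and 18 to 19 when each library was left out in turn.

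**Figure D3:**
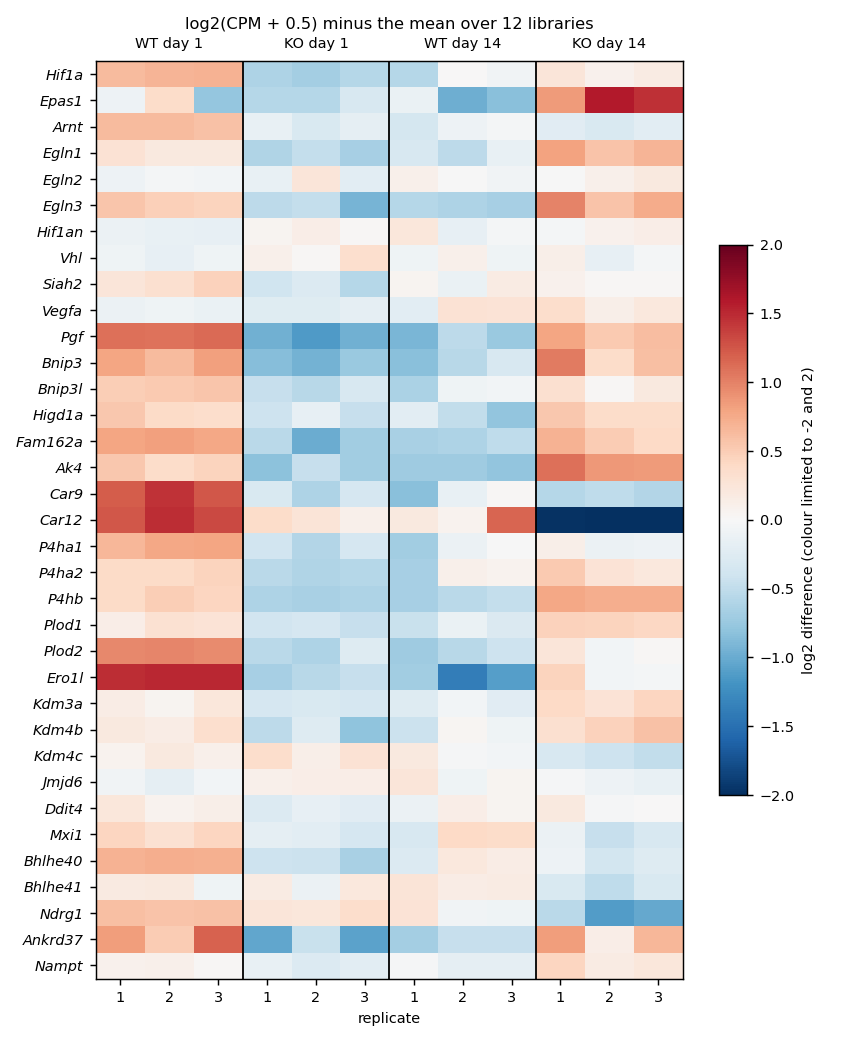
Log2(CPM + 0.5) of the 35 members in each of the 12 libraries, minus the member's mean over all libraries (red higher, blue lower, colour limited at 2 on the log2 scale). Upper genes to lower genes follow the order of roles in the text; in 18 members every WT day 1 and KO day 14 cell is redder than every other cell, and replicate 1 of WT at day 14 is bluer than the other replicates for Hif1a, P4ha1 and P4ha2.

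Other genes of the pathway come from lists chosen for their known roles, and their counts are read against the same backgrounds: at day 1, 30.7% of all genes were called higher and 30.1% lower, and at day 14 22.7% and 23.7%. Of 10 HIF regulators outside the members, 6 were higher and 2 lower in KO at day 1, and of 9 tested at day 14, 2 were higher and 2 lower. These are shares of 60 and 20% at day 1 and of 22.2% each at day 14, the latter near the background. Hif3a, an alpha subunit that can oppose HIF, was 0.138 ± 0.123 CPM in WT and 0.852 ± 0.614 CPM in KO at day 1 (2.58 ± 0.72, adjusted p = 0.00772), a very low level. Arnt2, a relative of Arnt, was also higher at day 1 (1.58 ± 0.28, adjusted p = 0.00028), and the coactivator Ep300 (-0.35 ± 0.06, adjusted p = 0.000387) and the ligase subunit Rbx1 (-0.17 ± 0.06, adjusted p = 0.025) were lower. At day 14 Cited2, which competes with HIF for coactivators, was 516 ± 81 CPM in WT and 218 ± 5.7 CPM in KO (-1.26 ± 0.12, adjusted p = 5.53e-05). The ligase subunit Elob was lower too (-0.41 ± 0.09, adjusted p = 0.00406), and the coactivator Crebbp (0.66 ± 0.13, adjusted p = 0.00306) and the ligase subunit Cul2 (0.64 ± 0.12, adjusted p = 0.00218) were higher.

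Of 25 tested HIF targets outside the members and glycolysis, 7 were higher and 14 lower in KO at day 1, with a median of -0.69, shares of 28.0 and 56.0%. At day 14, 9 of 27 were higher and 10 lower, with a median of 0.27, shares of 33.3 and 37.0%. The share of higher genes at day 1 was near the background. Stc1, a secreted glycoprotein, had the largest swing of those with a call at both days: 76.0 ± 5.7 CPM in WT and 1.54 ± 0.76 CPM in KO at day 1 (-5.59 ± 0.18, adjusted p = 5.21e-11), and 2.78 ± 1.5 and 72.1 ± 23 CPM at day 14 (4.69 ± 0.41, adjusted p = 3.36e-05). Flt1, a receptor for Vegfa and Pgf, was 6.86 ± 0.51 CPM in WT and 0.0694 ± 0.061 CPM in KO at day 1, where it held 4 counts (-6.48 ± 0.38, adjusted p = 1.21e-08). Cxcr4 was higher there (0.81 ± 0.21, adjusted p = 0.00419). At day 14 Lox, which cross-links collagen and elastin, was 215 ± 89 CPM in WT and 2264 ± 55.3 CPM in KO (3.38 ± 0.30, adjusted p = 3.58e-05). Ppp1r3c (-3.06 ± 0.72, adjusted p = 0.00748) and Edn1 (-2.85 ± 0.50, adjusted p = 0.00172) were lower at day 14.

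The 20 glycolytic HIF targets, which the member list leaves out, had 18 lower and 1 higher in KO at day 1 (median -1.42) and, of 19 tested, 10 higher and 2 lower at day 14 (median 0.41). The shares were 90.0% lower and 5.0% higher at day 1, against 30.1 and 30.7% of all genes, and 52.6% higher and 10.5% lower at day 14, against 22.7 and 23.7%. Pdk1, a pyruvate dehydrogenase kinase, was 145 ± 2.8 and 29.8 ± 1.0 CPM at day 1, then 57.9 ± 20 and 155 ± 22 CPM at day 14 (-2.28 ± 0.06 and 1.41 ± 0.24, adjusted p = 1.37e-11 and 0.0014). The glucose transporter Slc2a1 was higher at day 14 (1.45 ± 0.11, adjusted p = 1.41e-05). Aldoc was lower at both days (-3.55 ± 0.15 and -2.29 ± 0.60, adjusted p = 4.02e-10 and 0.0129), and Hk2 was higher at day 1 and lower at day 14 (0.46 ± 0.08 and -0.34 ± 0.11, adjusted p = 0.000306 and 0.0264). These lists were not tested against the members or against other genes.

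**Figure D4:**
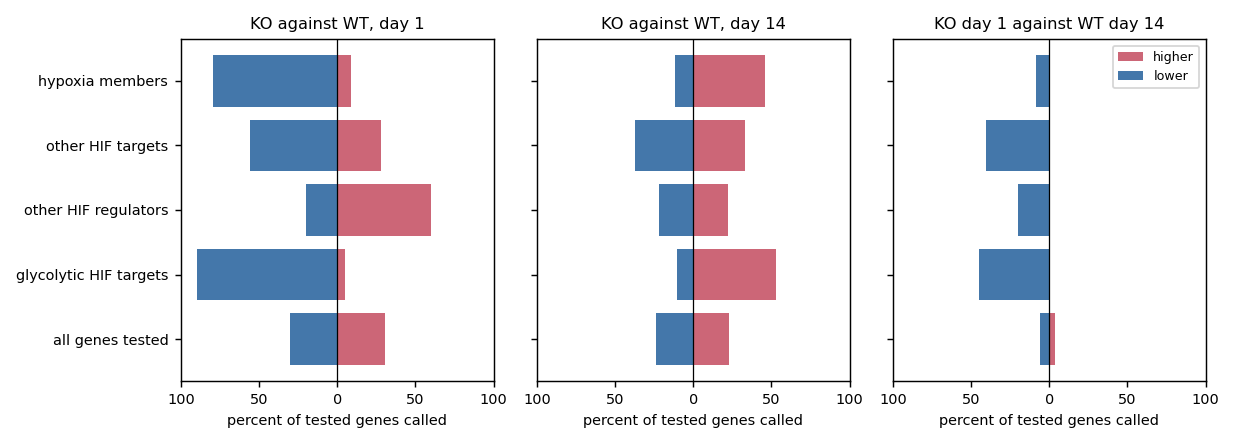
Percent of tested genes called lower (blue, leftward) and higher (red, rightward) in KO against WT at day 1 and day 14 and in KO at day 1 against WT at day 14, for the members, 3 other lists of the pathway and all genes tested. The lower bar of the members is 79.4% at day 1 against 30.1% of all genes, and the higher bar is 45.7% at day 14 against 22.7%.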

How the data were processed

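The authors deposited 2 tables of raw read counts for gene names, of 28494 lines for day 1 and 30866 lines for day 14. The genome build mm9 is named in the submitters' processing notes; for aligner, counter, annotation and use of strand, the entry is: not given in the sources used here. Libraries were made from total RNA with an NEBNext Ultra kit, per the labels' protocols. CTR columns stand for WT, and each table names its day. Lines that repeated a name with identical counts (43 and 53) were removed, and 26 names in each table that had been turned into dates were left out.

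The counts were tested by the quasi-likelihood F test of edgeR 4.0.16 (R 4.3.3) after TMM scaling and filterByExpr. P-values were adjusted by Benjamini-Hochberg over every gene tested, with calls below 0.05. Each KO against WT comparison used the 6 libraries of its day; the other 5 comparisons used the 12 libraries together, over 26706 names. Comparisons that share libraries are not independent: each WT or KO group serves several of them. Values are CPM on 1 scale over the 12 libraries as mean ± SD (n = 3), and log2 fold changes ± SE (SE is the log2 fold change divided by the root of F). The main settings were first tested on simulated data that had the same spread in every group. The real groups did not: the chi-square per gene between replicates was 2.9 to 3.58 in WT at day 1 and 9.2 to 51.5 in WT at day 14. The simulation therefore does not cover unequal spread. The alternative settings were not tested in this way. The precision of a value follows from its counts; between genes, CPM are not comparable, as they are not per length.

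The members and lists were chosen with earlier results of these data known. All members are named. Values in every library are given for members with an adjusted p below 0.05, a log2 fold change of at least 1 in size and a group mean of at least 1 CPM in KO against WT. Of each pathway list, the 2 largest called rises and falls per day are named. Promoter windows are shown for at most 4 members with a motif match and the largest called changes at day 1. No window was used for Siah2, Ndrg1, Kdm4b, Plod2, Bnip3l, Bhlhe40 and Epas1. Epo, Emcn and Cldn5 were not analysed here. Alternatives were DESeq2-type size factors, scaling by library size alone, DESeq2 1.42.0, no filter, at least 1 CPM in 3 libraries, a block for the replicate number, the 12 libraries together for KO against WT, and leaving out each library.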

Additional observations from a re-analysis of the deposited data

Results flagged for a closer look

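The effect of the knockout differed between day 1 and day 14, by a test of the difference itself, in 30 of 35 members, and 60.1% of all genes passed the same test. Values are changes of the log2 fold change from day 1 to day 14.

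Among HIF subunits and turnover genes the change was 1.65 for Hif1a, 4.57 for Epas1, 0.74 for Arnt, 1.84 for Egln1, 2.55 for Egln3 and 0.78 for Siah2. The Epas1 value rests on very few counts and was 6.81 without replicate 1 of WT at day 14. Among ligands and mitochondrial genes it was 3.58 for Pgf, 2.89 for Bnip3, 1.39 for Bnip3l, 1.71 for Higd1a, 2.67 for Fam162a and 2.84 for Ak4. The carbonic anhydrases went opposite ways, with 1.47 for Car9 and -2.99 for Car12. The Car9 value comes from a fall at day 1 and no call at day 14, not from a rise.

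Among collagen and disulphide genes the change was 1.39 for P4ha1, 1.45 for P4ha2, 2.36 for P4hb, 1.37 for Plod1, 2.06 for Plod2 and 3.23 for Ero1l. Among demethylases it was 1.02 for Kdm3a, 1.37 for Kdm4b and -0.58 for Kdm4c, and for the related Jmjd6 it was -0.39. The remaining values were 0.40 for Ddit4, 0.92 for Bhlhe40, -0.56 for Bhlhe41, -0.62 for Ndrg1, 4.66 for Ankrd37 and 0.69 for Nampt. For Ankrd37 the value was 5.38 without replicate 2 of KO at day 1. The call for Ddit4 was lost with library size alone as the scale (0.19, adjusted p = 0.191), and that for Jmjd6 without a filter on low counts (-0.34, adjusted p = 0.0522). Dixon's test for single outlying values was not run.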

How the results depend on the processing

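No member that was called changed direction under any alternative run. The count of members called in either direction stayed within 1.5 times in the comparisons of KO with WT, in the change of the KO effect and in the contrasts between days, when each library was left out (27 to 31 at day 1, 20 to 27 at day 14, 30 for the change) and under the other alternatives. It also did in KO at day 14 against WT at day 1, where the higher count alone ran from 4 to 10 when each library was left out. It did not in KO at day 1 against WT at day 14: 8 members were called by DESeq2 and 7 without a filter, instead of 3. When each library was left out, this count ran from 0 to 16, and that over all genes from 577 to 5531. The count of 0 came without replicate 3 of KO at day 1, where 1 member was higher and 8 lower at an unadjusted p below 0.05 (edgeR; DESeq2 was run on all libraries only); it was 1 without replicate 1 of KO at day 1 or without replicate 2 or 3 of WT at day 14.

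The values that changed sign belong to members without a call. At day 1 these were Vegfa with library size alone (0.016), and Bhlhe41 with other size factors (-0.0015), DESeq2 (-0.0017), no filter (-0.0222) or all 12 libraries (-0.007). At day 14 they were Hif1an (-0.0289) and Ddit4 (-0.0374) with library size alone, Vhl without a filter (0.0076), and Siah2 without a filter (0.0187), with the replicate block (0.0017) or in the fit of all 12 libraries (0.0079). When each library was left out, the log2 fold change ran from -0.1144 to 0.1356 for Egln2 and from -0.0929 to 0.0995 for Bhlhe41 at day 1. At day 14 it ran from -0.0435 to 0.135 for Hif1an, -0.0869 to 0.05 for Vhl, -0.0808 to 0.0663 for Siah2, -0.0895 to 0.1596 for Vegfa, -0.0018 to 0.3376 for P4ha1 and -0.0559 to 0.0834 for Ddit4. The cause was not tested.

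Same-numbered WT and KO libraries shared only a number: their deviations correlated at -0.0177 to -0.0115 at day 1 and -0.0328 to 0.0871 at day 14, and not every library correlated best with its own number. With the replicate block, 30 members were called at day 1, 20 at day 14 and 30 for the change of the effect; over all genes the counts were 9081, 6697 and 9510. Low counts limit Epas1, Ankrd37 and Car12 in KO at day 14. Where leaving out a library gives 2 against 3, the spread is pooled over the groups.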

Other observations

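Within the groups, single libraries leaned the same way over many members. Replicate 1 of KO at day 14 held the highest value of its group in 27 of 35 members, and replicate 2 the lowest in 23. Replicate 1 of WT at day 14 was the lowest of its group in 20 members and the highest in 12. In WT and KO at day 1 no library was the highest in more than 15 members or the lowest in more than 17. Members share libraries and scale, so these counts are not independent.

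In the GENCODE M21 annotation, exons of 13 members overlap another gene, and for 10 of them that gene is in the tables. Besides Ufsp2 at Ankrd37, the highest levels of such neighbours were 12.3 CPM for Mettl23 at Jmjd6, 7.38 CPM for Wdr5b at Fam162a and 4.45 CPM for Gm12454 at Car9, all on the opposite strand.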
